A study of Mus musculus with 6 samples.

Results

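The genes described here code for the machinery of extracellular ATP and adenosine: 2 ectonucleotidases (Entpd1, Nt5e), adenosine deaminase (Ada), the adenosine receptors Adora2a and Adora2b, the ATP-gated channels P2rx4 and P2rx7, and the P2Y receptors P2ry12, P2ry13 and P2ry14. They were chosen by name, and a gene was represented by the probe set that carried its symbol alone and had the highest mean over all arrays. Of the 10 genes, 8 had such a probe set, out of 22180 genes on the array, and each of the 8 had exactly 1. Adora2a and Adora2b, the cAMP-raising adenosine receptors, were not analysed here.

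Outside a cell, ATP acts as an alarm signal and adenosine as a brake. CD39, the product of Entpd1, removes phosphates from ATP and ADP to leave AMP, and CD73, the product of Nt5e, turns AMP into adenosine, which damps T cells through receptors that raise cAMP. Adenosine deaminase ends that signal by making inosine, while P2X channels open on binding ATP and P2Y receptors couple nucleotides and nucleotide sugars to G proteins.

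Transcripts were measured in mouse spleen CD8+ T cells that had been sorted as naive and activated over 4 days with antibodies to CD3 (1 µg/ml) and CD28 (3 µg/ml). In the Tc1 cultures IL-12 was given for 3 days, in the Tc17 cultures IL-6 and TGFb were given in its place, and both kinds then spent 1 day in IL-2. There were 2 biological samples and a technical array in each group, so that 3 arrays stood for each group. The technical array is labelled rep2 and was read as a repeat of sample 2. Whether it repeats the hybridisation, the labelling or the extraction is not stated. The labels give no genotype, strain or age, and do not say whether the samples came from separate mice, so the p-values measure the spread between these samples, which may be technical. In cultured bulk populations, fewer cells with a transcript and less of it per cell cannot be told apart.

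All values are log2 intensities, the authors' RMA output, in which a step of 1 is a doubling of brightness. Array medians lay between 6.04 and 6.09, and their number, 2 samples against 2, limits the precision of every difference. The labelled cell type was checked by its markers, which were bright: 5 CD8 T cell markers averaged 12.23 to 12.30 in Tc1 and 12.27 to 12.35 in Tc17, with Cd8a at 12.91 and 12.78. Cd4, the coreceptor of helper T cells, averaged 7.05 in Tc1 and 6.99 in Tc17. Zbtb7b, the other CD4 T cell marker listed, averaged 7.91 and 7.78. Both were above the array median on every array, and a share of CD4 T cells was not tested. Markers of dendritic cells (4 of 4 measured below every array median) were dim throughout, and no erythroid marker had a probe set of its own.

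Between the cultures, the upstream and downstream ectonucleotidases moved in opposite directions and the 3 P2Y receptor genes fell together. Nt5e was 5.81-fold higher in Tc17, whereas Entpd1 was 4.11-fold lower, P2ry14 6.96-fold lower, P2ry12 3.73-fold lower and P2ry13 2.48-fold lower. P2rx4 overlapped between the groups, and Ada and P2rx7 were lower without passing the test. A gene is said to rise, fall or pass where limma's moderated test, adjusted over all 41345 probe sets by Benjamini-Hochberg, gave a p under 0.05. By that rule 1 of the 8 genes was higher, against a background of 0.992% of all genes, and 4 were lower, against 0.591%. The 3 Tc17 arrays lay wholly below the 3 Tc1 arrays for 6 of the 8 genes (14.5% of all genes) and wholly above them for 1 (15.2% of all genes). The median log2 difference of the 8 genes was −1.41, beside −0.01 for all genes. The genes were picked with results of these arrays known, so these counts describe them and are no independent evidence.

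**Figure D1:**
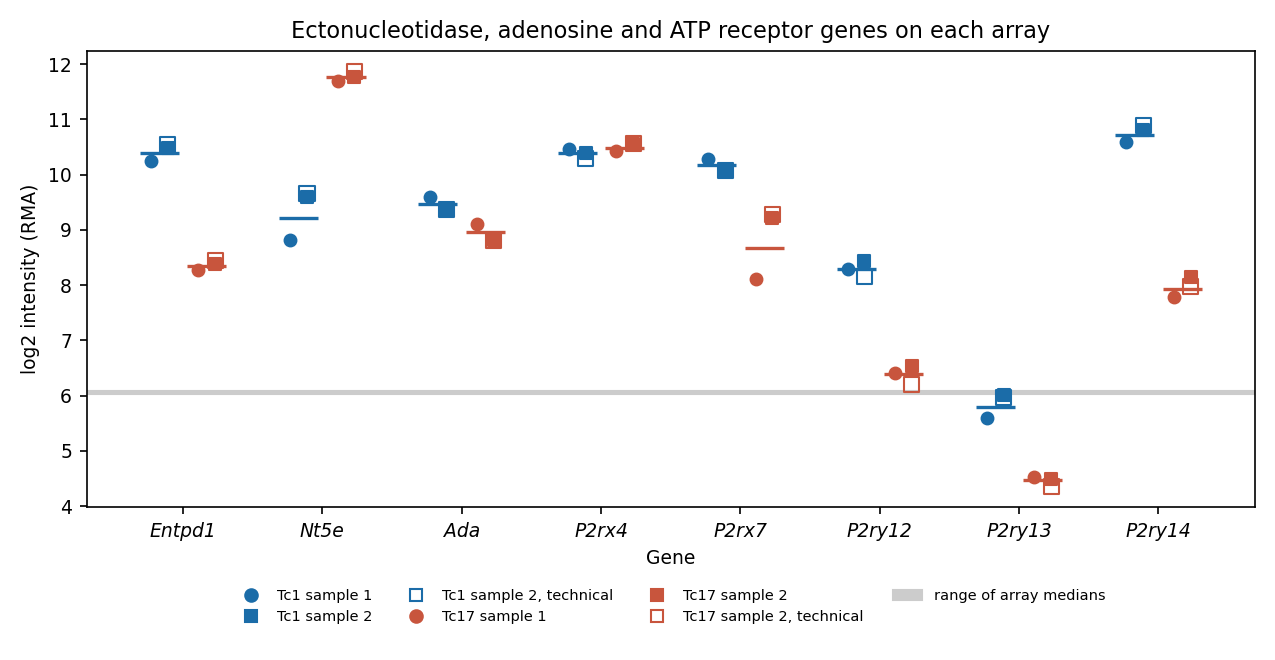
Log2 intensity (y axis) of each measured gene (x axis) on the 6 arrays; blue is Tc1, red is Tc17, circles are sample 1, filled squares sample 2, open squares its technical array, short lines the means of the 2 samples, and the grey band the range of the array medians. Nt5e sits above 11 in Tc17, the Tc17 arrays of Entpd1 and P2ry14 average 8.34 and 7.92, below 10.38 and 10.72 in Tc1, and P2rx7 in Tc17 is split between sample 1 at 8.12 and sample 2 at 9.21 and 9.28.

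Entpd1 encodes CD39, which sets the pace of extracellular ATP removal on lymphocytes. Its probe set (17359344) measured 10.25, 10.49 and 10.54 on the Tc1 arrays of sample 1, sample 2 and the technical repeat, and 8.28, 8.38 and 8.44 on the matching Tc17 arrays. The groups were 1.81 apart at their closest, several times the 0.26 and 0.13 that separated the 2 samples within a group. The means were 10.38 ± 0.19 in Tc1 and 8.34 ± 0.09 in Tc17 (log2, SD, n = 2), so that Tc17 minus Tc1 was −2.04 ± 0.12 (log2, SE, limma adjusted p = 0.0112). Even in Tc17 every array of Entpd1 was above its array median, so the gene's signal was reduced and not at the lower end of the scale. Among the 131 genes that fell, Entpd1 had the 41st largest difference.

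The call of Entpd1 depended on which samples were kept, while the size of its difference moved little. The log2 difference ran from −2.17 to −1.91 with each sample left out. Without Tc1 sample 1 it still passed (limma adjusted p = 0.0411). It did not with Tc1 sample 2 (0.055), Tc17 sample 1 (0.0776) or Tc17 sample 2 (0.0606) removed.

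Nt5e encodes CD73, the enzyme that yields adenosine from AMP. Its probe set (17520073) measured 8.82 in Tc1 sample 1, 9.59 and 9.67 on the arrays of Tc1 sample 2, and 11.70, 11.77 and 11.87 in Tc17. The Tc17 arrays were close to one another, while the 2 Tc1 samples were 0.81 apart, and the groups were still 2.03 apart at their closest. The means were 9.22 ± 0.57 in Tc1 and 11.76 ± 0.08 in Tc17 (log2, SD, n = 2), so that Tc17 minus Tc1 was 2.54 ± 0.28 (log2, SE, limma adjusted p = 0.0436). Nt5e was the only one of the 8 genes that rose, and 41st by size among the 220 genes that did. The difference was 2.13 without Tc1 sample 1 and 2.94 without Tc1 sample 2. Each of these fits keeps 1 Tc1 sample, so its residual spread comes from the close Tc17 pair. The 0.81 between the Tc1 samples does not count in them, and a call there cannot speak for that spread. Without Tc17 sample 1 or sample 2 the limma adjusted p was 0.205 or 0.173.

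The stretches before the RefSeq starts of both genes are shown because these transcripts moved in opposite directions. Each is the 250 bases upstream of the start, 5′ to 3′ on the gene's strand, from RefSeq's GRCm38.p6 annotation. Capitals mark matches on either strand to a set of short motifs: the STAT motif TTCNNNGAA, the full CRE TGACGTCA and its core TGACG, the xenobiotic response core GCGTG, the hypoxia response core ACGTG, the Smad box GTCTAGAC and the shorter Smad core CAGAC, the SP1 motif GGGCGG, the T-box motif GGTGTGA, the Runx motif TGTGGT and the Gfi1 motif AAATC. The CRE core TGACG is part of TGACGTCA, and neighbouring matches can share bases.
Entpd1 (first of 2 annotated starts, chr19:40612116-40612365, plus strand): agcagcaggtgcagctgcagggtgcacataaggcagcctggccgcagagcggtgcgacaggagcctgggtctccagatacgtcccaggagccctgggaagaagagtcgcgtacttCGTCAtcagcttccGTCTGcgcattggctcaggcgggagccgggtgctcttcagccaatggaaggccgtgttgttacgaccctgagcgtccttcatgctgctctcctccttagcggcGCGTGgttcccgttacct
Nt5e (chr9:88327359-88327608, plus strand): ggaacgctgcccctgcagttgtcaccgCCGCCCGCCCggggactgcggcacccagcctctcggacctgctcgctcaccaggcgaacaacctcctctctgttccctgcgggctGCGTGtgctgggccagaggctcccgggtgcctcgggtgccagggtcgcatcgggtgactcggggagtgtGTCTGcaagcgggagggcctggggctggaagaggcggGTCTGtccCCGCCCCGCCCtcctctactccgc

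Both stretches held the xenobiotic response core, the binding letters of the aryl hydrocarbon receptor, and the Smad core. The window of the other Entpd1 start held the Smad core but not the xenobiotic response core. GCGTG was present in 28.2% and CAGAC in 42.2% of all 32851 promoter windows of that length, so neither is rare. Nt5e held 4 matches to the SP1 motif (32.7% of windows) in overlapping pairs and was rich in G and C (72%, median of all windows 52.4%). Entpd1 held TGACG (17.8% of windows), as did the window of its other start, and its first window was 62.4% G and C. Neither gene had the STAT motif (7.02% of windows), the full CRE (1.55%), the Smad box (0.167%) or the T-box motif (3.33%) in these letters. A match is a string of letters and not a shown binding site.

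Ada encodes adenosine deaminase. It measured 9.59, 9.35 and 9.36 in Tc1 and 9.10, 8.81 and 8.80 in Tc17 on the arrays of sample 1, sample 2 and the technical repeat. All Tc17 arrays were below all Tc1 arrays, but by 0.25 at the closest, about the distance between samples of a group (0.23 and 0.29). The log2 difference was −0.52 ± 0.14 (SE) with an unadjusted 95% interval from −0.89 to −0.15, and Ada did not pass (limma adjusted p = 0.244). In both groups sample 1 was the brighter of the 2.

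P2rx7 encodes the channel that opens at high ATP and can kill or reshape T cells. It measured 10.29, 10.07 and 10.07 in Tc1, and its Tc17 arrays were split, with sample 1 at 8.12 and sample 2 at 9.21 and, repeated, 9.28. Every Tc17 array was below every Tc1 array by at least 0.79, but the 2 Tc17 samples were 1.13 apart while their technical pair differed by 0.07. The log2 difference was −1.50 ± 0.38 (SE) with an unadjusted 95% interval from −2.51 to −0.49, and it did not pass (limma adjusted p = 0.221). Without Tc17 sample 1 it was −0.94, and without Tc17 sample 2 it was −2.06 (limma adjusted p = 0.22 and 0.053). Gzma, a granzyme gene, was split the same way in Tc17, at 7.18 in sample 1 and, for sample 2, 9.55 with a repeat of 9.63. The part of the sample difference in the P2rx7 result was not tested beyond leaving each sample out.

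P2rx4, the gene of an ATP-gated channel with a part in T cell activation, is the next protein-coding gene to P2rx7 in RefSeq order. It measured 10.46, 10.38 and 10.28 in Tc1 and 10.42, 10.55 and 10.57 in Tc17, and the groups overlapped. The log2 difference was 0.09 ± 0.09 (SE, limma adjusted p = 0.759). The unadjusted 95% interval ran from −0.15 to 0.34, or from 0.899-fold to 1.27-fold. Whether the differences of P2rx4 and P2rx7 differ from each other was not tested.

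P2ry14 encodes a receptor for UDP-glucose and related UDP-sugars, which couples to inhibitory G proteins. It had the largest difference of the 8 genes, measuring 10.60, 10.81 and 10.89 on the Tc1 arrays and 7.78, 8.15 and 7.98 on the Tc17 arrays. The groups were 2.45 apart at their closest, and samples within a group differed by 0.26 and 0.28. The means were 10.72 ± 0.18 and 7.92 ± 0.20 (log2, SD, n = 2), and Tc17 minus Tc1 was −2.80 ± 0.14 (log2, SE, limma adjusted p = 0.00915), the 19th largest of the 131 falls. Without Tc1 sample 2 or Tc17 sample 1 the limma adjusted p was 0.055 or 0.0529, at differences of −2.67 and −2.66.

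P2ry12, the gene of the ADP receptor best known from platelets and microglia, was lower in every Tc17 array. It measured 8.29, 8.43 and 8.15 in Tc1 and 6.41, 6.54 and 6.21 in Tc17. Here the technical arrays differed from sample 2 by 0.28 and 0.33, more than the averaged samples differed from each other (0.0027 and 0.04). The log2 difference was −1.90 ± 0.07 (SE, limma adjusted p = 0.00481), the smallest p of the 8 genes, at means of 8.29 and 6.39. The standard error is limma's moderated value, which draws on the variance of all probe sets as well as on that close match. Without the technical arrays the limma adjusted p was 0.00893. Leaving out Tc1 sample 2 or Tc17 sample 1 gave a limma adjusted p of 0.0503 or 0.0529.

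P2ry13 encodes another ADP receptor and was the dimmest of these probe sets. It measured 5.59, 6.01 and 5.96 in Tc1 and 4.52, 4.50 and 4.36 in Tc17, below the array median on all 6 arrays. The groups did not overlap and were 1.07 apart at their closest, with means of 5.79 ± 0.28 and 4.47 ± 0.07 (log2, SD, n = 2). The log2 difference was −1.31 ± 0.15 (SE, limma adjusted p = 0.0489). This is the weakest of the calls: the limma adjusted p was 0.0545 without the technical arrays and 0.0569 after quantile normalization, and the call ended with any of the 4 samples left out (0.0632 to 0.218). No detection call was used here, so signal above background was not shown for P2ry13 in either group and its fold holds for intensities.

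**Figure D2:**
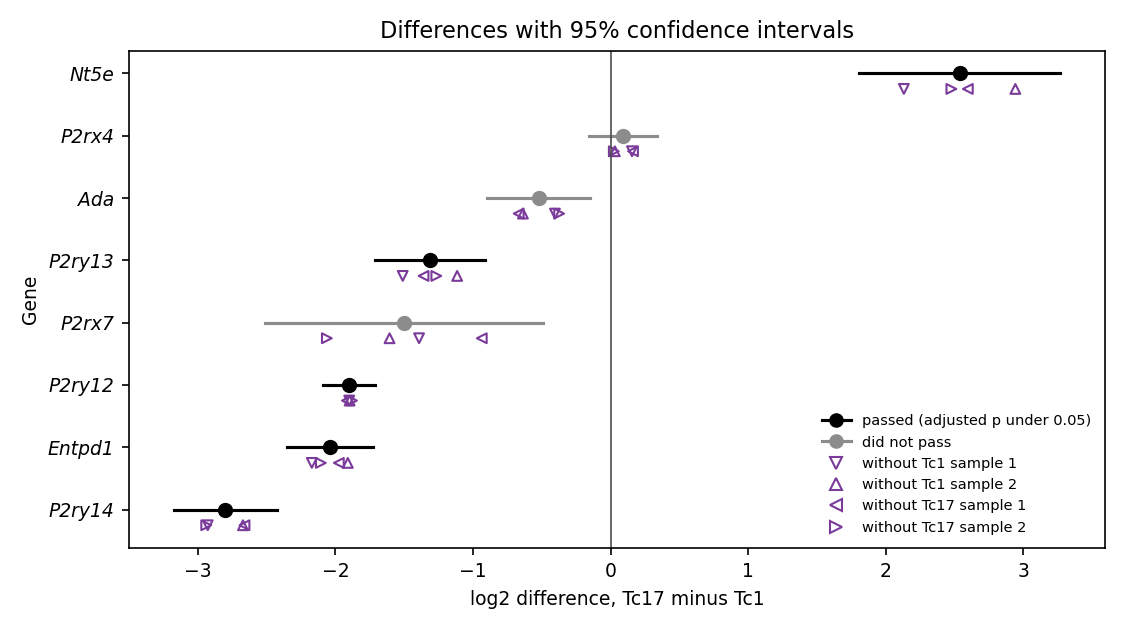
Log2 difference, Tc17 minus Tc1 (x axis), of the 8 measured genes (y axis, sorted); dots are the limma estimates from 2 against 2 samples, bars their unadjusted 95% confidence intervals, black where the adjusted p was under 0.05, and purple triangles the estimates with 1 sample left out. Nt5e lies at 2.54, P2rx4 at 0.09 and the others below 0, and the triangles of P2rx7 spread from −2.06 to −0.94.

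The 3 P2Y genes lie near one another within the span of Med12l, a gene of the Mediator complex family, in the RefSeq order of GRCm38.p6. That span offered a local comparison. Gpr171, an orphan-type receptor gene in the same span, had 2 probe sets with its symbol alone, and only the brighter was used. It measured 10.76 in Tc1 and 10.84 in Tc17 and was not called (log2 difference 0.07 ± 0.14 SE, limma adjusted p = 0.888). The difference was −0.093 without Tc1 sample 2 and −0.019 without Tc17 sample 1. Med12l had a log2 difference of −0.83 ± 0.23 (SE) without a call (limma adjusted p = 0.251), at means of 7.79 and 6.97. It passed in 3 of 16 alternative settings (lowest limma adjusted p = 0.0148). These were the replicate number as a block, the technical array averaged with sample 1, and 6 separate arrays (0.0489). In the last, the technical repeats count as samples of their own. The lncRNA gene F630111L10Rik, between P2ry14 and P2ry13, differed by −0.21 at a level below every array median. Beyond the span, Siah2 and Mbnl1 differed by −0.26 and −0.14, and neither passed (limma adjusted p = 0.318 and 0.557). Igsf10 was not analysed here. Differences from the P2Y genes were not tested directly.

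**Figure D3:**
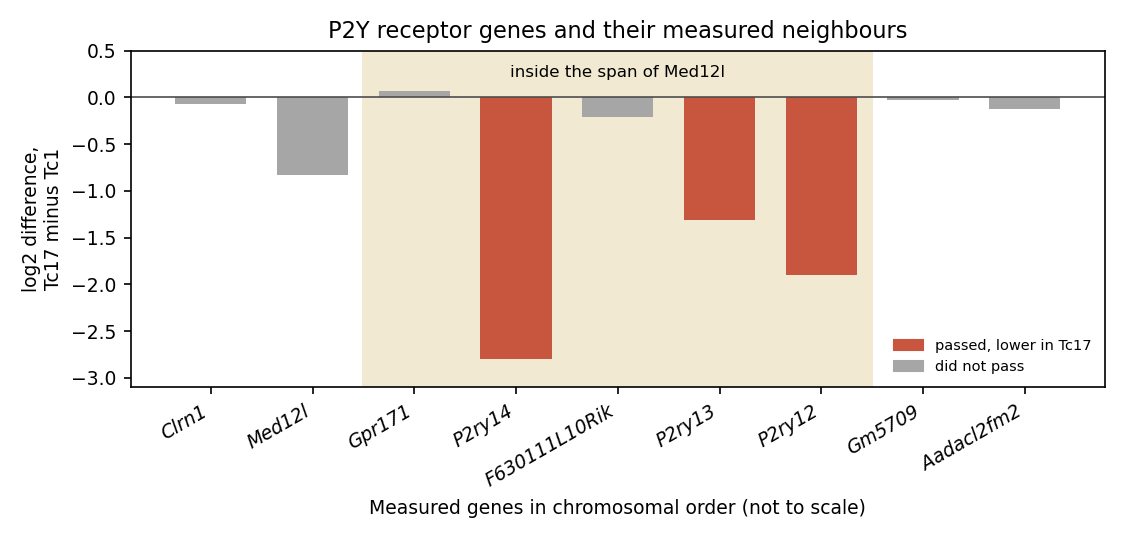
Log2 difference, Tc17 minus Tc1 (y axis), of the measured genes around the P2Y receptor cluster in RefSeq order (x axis, not to scale); red bars passed the test, grey bars did not, and the shaded block marks genes inside the span of Med12l. P2ry14, P2ry13 and P2ry12 are at −2.80, −1.31 and −1.90, while Gpr171, in the same span, is at 0.07 and changes sign without Tc1 sample 2 or Tc17 sample 1.

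The upstream stretches of the 3 P2Y genes are shown because they are neighbours that fell together. All lie on the minus strand and are printed 5′ to 3′ in that direction, with the same motifs in capitals; P2ry14 has 4 annotated starts, and the one farthest upstream is given.
P2ry14 (chr3:59153493-59153742, minus strand): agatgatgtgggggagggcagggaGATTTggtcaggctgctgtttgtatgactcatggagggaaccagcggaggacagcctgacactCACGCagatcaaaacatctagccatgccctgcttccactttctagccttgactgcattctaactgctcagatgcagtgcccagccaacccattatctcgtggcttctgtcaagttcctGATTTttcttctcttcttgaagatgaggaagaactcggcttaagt
P2ry13 (chr3:59210883-59211132, minus strand): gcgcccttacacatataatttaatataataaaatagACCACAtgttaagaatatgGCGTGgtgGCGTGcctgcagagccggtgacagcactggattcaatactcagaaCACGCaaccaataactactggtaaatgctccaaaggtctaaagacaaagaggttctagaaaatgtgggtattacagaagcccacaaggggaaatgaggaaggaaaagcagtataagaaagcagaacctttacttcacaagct
P2ry12 (chr3:59262986-59263235, minus strand): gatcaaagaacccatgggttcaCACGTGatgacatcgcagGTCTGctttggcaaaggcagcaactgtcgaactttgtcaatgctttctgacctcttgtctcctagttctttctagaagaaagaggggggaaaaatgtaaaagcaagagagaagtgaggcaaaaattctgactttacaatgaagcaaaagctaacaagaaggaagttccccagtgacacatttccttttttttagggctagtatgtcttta

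No motif of the set was found in all 3 stretches. P2ry14 and P2ry13 held the xenobiotic response core (28.2% of windows), with 3 matches in P2ry13. The other 3 start windows of P2ry14 lacked that core. P2ry14 held the Gfi1 motif at 2 places (32.7% of windows), and P2ry13 the Runx motif (14% of windows). P2ry12 held the hypoxia response core, as CACGTG read from both strands (16.6% of windows hold ACGTG), and the Smad core. The T-box motif was in none of the 3 windows, nor in the other 3 start windows of P2ry14. The 3 windows had 50%, 41.6% and 41.6% G and C.

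By profile over the 6 arrays, the gene nearest to P2ry14 was Tbx21, which encodes the type 1 lineage factor T-bet. Likeness was measured as the root mean square distance in log2 units after each gene was centred on its own mean, over 18682 genes with settled symbols. Tbx21 lay 0.13 from P2ry14 and measured 11.39 in Tc1 and 8.60 in Tc17, followed by Gbp3 (0.18), an interferon-induced GTPase gene, and Gpx8 (0.20). Filip1 (0.06), Atp8b4 (0.09) and Car5b (0.11) were nearest to Entpd1. The nearest to Nt5e were Ust (0.14), a sulfotransferase gene, Tmem176b (0.15) and Npas2 (0.18). Snx9 (0.12), Rufy4 (0.14) and Adamts14 (0.16) were nearest to P2ry12, and Fam20a (0.08), H2-T10 (0.09) and Cobll1 (0.11) to P2ry13. With 2 groups such nearness mostly reflects a like difference between groups, and the 6 arrays hold 4 samples.

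Of a list of other ecto-enzymes and their relatives, 13 of 21 symbols were measured. Among these genes 1 rose and 1 fell (1 higher and 3 lower at an unadjusted p under 0.05), and their median log2 difference was −0.04. For this list and those that follow, the background is 0.992% of all genes called higher and 0.591% called lower. At an unadjusted limma p under 0.05 it is 13.3% of all probe sets, both directions together. The list held Dpp4, a peptidase gene, and named Acpp also by its other symbol, Acp3. Acpp, whose product is a phosphatase that can also make adenosine from AMP, rose from 7.73, 8.12 and 7.86 on the Tc1 arrays to 8.95, 8.98 and 9.16 on the Tc17 arrays. Its log2 difference was 1.15 ± 0.12 (SE, limma adjusted p = 0.0377). Enpp4, of the ectonucleotide pyrophosphatase family, fell from 11.22, 11.56 and 11.55 to 9.75, 9.52 and 9.56, a change of −1.74 ± 0.15 (log2, SE, limma adjusted p = 0.0245). Both calls ended with any sample left out (limma adjusted p = 0.0918 to 0.173 for Acpp and 0.0632 to 0.109 for Enpp4), and that of Acpp without the technical arrays (0.0781). Enpp5 and Entpd5, with differences of −2.03 and −0.48, did not pass. Enpp5 passed in 7 of 16 alternative settings. Among these were 6 separate arrays (limma adjusted p = 0.00374) and a filter on mean level (0.0487).

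Of 13 other P2 and adenosine receptor genes 12 were measured, 1 fell and none rose, and the median log2 difference was 0.02. At an unadjusted limma p under 0.05 there was 1 in each direction (13.3% of all probe sets, both directions together). P2rx3, the gene of an ATP-gated channel known from sensory neurons, fell from 8.60, 9.20 and 9.27 in Tc1 to 6.18, 5.99 and 5.62 in Tc17. The groups were far apart, Tc17 minus Tc1 being −2.92 ± 0.25 (log2, SE, limma adjusted p = 0.0252), and the Tc17 mean of 5.99 lay below every array median. Removing Tc1 sample 2, Tc17 sample 1 or Tc17 sample 2 ended the call (limma adjusted p = 0.0729, 0.1 and 0.107). P2ry6 and P2ry10b had differences of 0.31 and 0.22 and did not pass, and 5 of the 12 genes had means below every array median in both groups.

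All 7 listed genes of ATP release were measured. Gja1 rose, none fell, and the median log2 difference was 0.21. At an unadjusted limma p under 0.05, 4 were higher and 0 lower (13.3% of all probe sets, both directions together). Gja1 encodes connexin 43, whose hemichannels can let ATP out of cells. It measured 6.12, 5.92 and 5.96 in Tc1, around or below the array medians, and 8.26, 8.10 and 7.97 in Tc17, 2.12 ± 0.12 more (log2, SE, limma adjusted p = 0.0106). Without Tc1 sample 1, Tc1 sample 2 or Tc17 sample 1 the limma adjusted p was 0.0538, 0.0684 or 0.0604. Slc17a9, the gene of the vesicular nucleotide transporter, had a log2 difference of 1.56 and Calhm2, of a channel family that can pass ATP, 0.47. Neither passed (limma adjusted p = 0.11 and 0.104). Slc17a9 passed in 5 and Calhm2 in 4 of 16 alternative settings, among them 6 separate arrays (limma adjusted p = 0.00758 and 0.00599). Panx1, the gene of the pannexin channel, differed by 0.21 (limma adjusted p = 0.329).

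Nucleoside transport and metabolism showed no called gene by limma's test among 20 measured of 21, with a median log2 difference of 0.09. At an unadjusted limma p under 0.05, 4 were higher and 2 lower (13.3% of all probe sets, both directions together). The largest differences were 1.37 for Ampd3, an AMP deaminase gene, and 0.52 for Slc29a3, a nucleoside transporter gene of lysosomes (limma adjusted p = 0.0722 and 0.186). Ampd3 passed under a filter on mean level (0.0412), and both passed with 6 separate arrays (0.00357 and 0.0289). Adk, which encodes the kinase that turns adenosine back into AMP inside the cell, differed by −0.07, and the equilibrative transporter gene Slc29a1 by 0.16. The cAMP relay of the A2 adenosine receptors likewise had no called gene by limma's test among 22 of 24 (5 higher and 3 lower at an unadjusted p under 0.05), with a median of 0.04. Gnal, a stimulatory G protein gene, differed by 1.77 and Creb1, a cAMP-responsive transcription factor gene, by −0.50, without passing (limma adjusted p = 0.153 and 0.352). With 6 separate arrays Gnal passed (limma adjusted p = 0.0213), and the list had 4 genes called higher and 1 lower.

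In the relay of P2X7, 7 of 9 genes were measured, Casp1 fell and none rose, and the median log2 difference was −0.06. At an unadjusted limma p under 0.05, 2 were lower and none higher (13.3% of all probe sets, both directions together). Casp1 encodes the protease that matures IL-1 family cytokines and measured 7.16, 6.69 and 6.82 in Tc1 and 5.37, 5.15 and 4.96 in Tc17. The log2 difference was −1.75 ± 0.18 (SE, limma adjusted p = 0.0382), with the Tc17 mean of 5.21 below every array median, and the call ended with any sample left out (0.0924 to 0.137). Adam17, a sheddase gene, and Nlrp3, an inflammasome sensor gene, differed by −0.38 and 0.32 and did not pass, though Adam17 did with 6 separate arrays (limma adjusted p = 0.0261).

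Among 8 genes reported to regulate Entpd1 or Nt5e, all measured, all 8 differences were above 0, Ahr rose and none fell. At an unadjusted limma p under 0.05, 3 were higher and none lower (13.3% of all probe sets, both directions together). Ahr, the aryl hydrocarbon receptor gene, went from 6.67 to 11.11, 4.45 ± 0.24 more (log2, SE, limma adjusted p = 0.00986; 0.0577 without Tc17 sample 1). Smad3 and Stat3, which relay TGF-beta and IL-6, differed by 0.64 and 0.50, short of a call (limma adjusted p = 0.0722 and 0.0802). Smad3 passed in 7 and Stat3 in 6 of 16 alternative settings. Among these were 6 separate arrays (limma adjusted p = 0.00802 and 0.00416) and single-symbol probe sets only. Gfi1, a repressor gene, differed by 0.19 (limma adjusted p = 0.748). The list's median was 0.17.

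**Figure D4:**
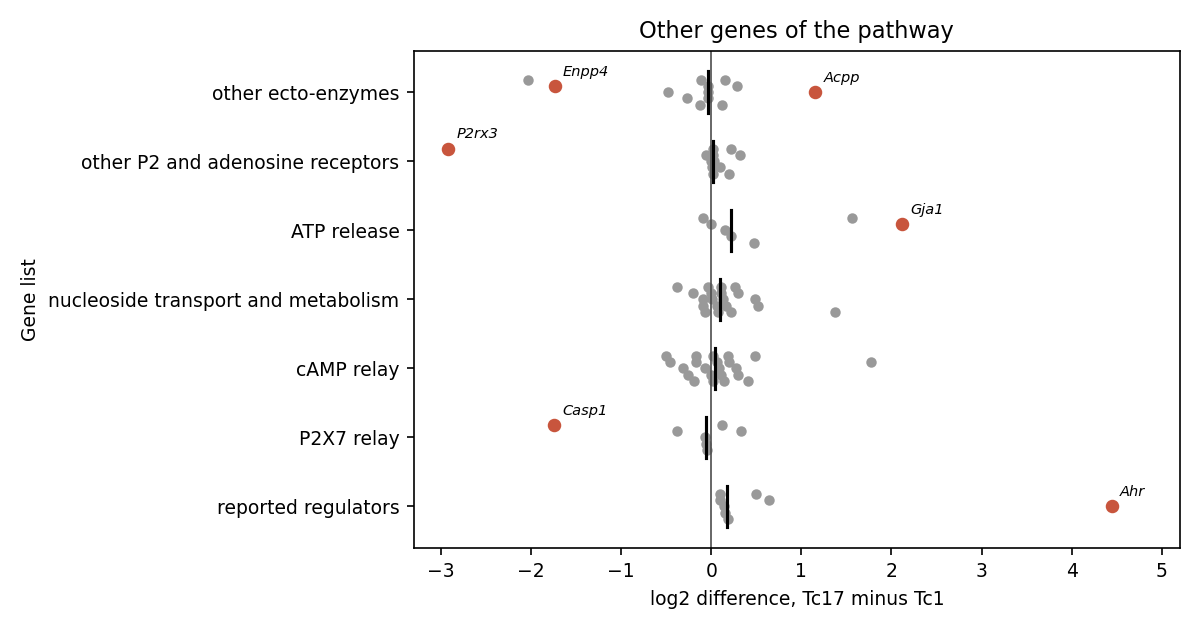
Log2 difference, Tc17 minus Tc1 (x axis), of the measured genes of 7 lists around the pathway (y axis); each dot is a gene, red and named where the adjusted p was under 0.05, and black lines are list medians. Of these genes, 6 passed, from P2rx3 at −2.92 to Ahr at 4.45, and the list medians lay between −0.06 and 0.21.

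Several of these genes are also expressed by myeloid cells or platelets. Of 7 measured macrophage and monocyte markers, Lyz2, the lysozyme gene, rose (5.44 to 8.97) and none fell, and the list averaged 6.10 to 6.29 on the Tc1 arrays and 6.71 to 6.87 on the Tc17 arrays. At an unadjusted limma p under 0.05, reached by 13.3% of all probe sets, 4 were higher and 0 lower. Beside Lyz2 these were Adgre1, Csf1r and Cd14, with log2 differences of 0.38, 0.28 and 0.25. Their Tc17 arrays were all above their Tc1 arrays, as for 15.2% of all genes. Cd68, the brightest of the list in Tc1, differed by −0.14 (9.99 to 9.85), and Itgam and Fcgr1 by 0.09 and 0.03. Adgre1, Cd14 and Fcgr1 were below every array median in both groups, and the list's median log2 difference was 0.25. Platelet markers (4 of 4 measured, none called, 1 higher at an unadjusted p under 0.05) averaged 5.71 to 5.80 in Tc1 and 5.78 to 5.83 in Tc17. Of 4 measured B cell markers Cd79b was 0.52 higher without being called (limma adjusted p = 0.162), and the list averaged 6.61 to 6.64 and 6.69 to 6.79. Of 3 NK cell markers, Ncr1 and Klrb1c lay below every array median. The other, Gzma, which activated CD8 T cells also express, averaged 10.87 in Tc1 and 8.38 in Tc17, with all Tc17 arrays lower, and did not pass (limma adjusted p = 0.308, unadjusted p = 0.0298). The part of other cell types in the results for the 8 genes was not tested.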

How the data were processed

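Labelled total RNA from 4 biological samples was read on 6 Affymetrix arrays, 2 of them technical repeats. The deposited values are log2 intensities. RMA and Partek are the authors' tools, as the submitters' processing notes list them. RMA corrects background, normalizes by quantiles and summarizes probes. No versions, build or detection calls are in the sources used here. The technical array, labelled rep2, was read as a repeat of sample 2 and averaged with that sample, leaving 2 samples per group.

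Tc17 was compared with Tc1 by limma 3.58.1 (R 4.3.3; lmFit, eBayes) over all 41345 probe sets, none filtered, with Benjamini-Hochberg adjustment at 0.05 and 2 residual degrees of freedom (2.63 added by moderation). Of all probe sets, 418 passed and 5482 (13.3%) had an unadjusted p under 0.05. Confidence intervals are unadjusted, at 95%. Genes were named from the platform annotation, all 8 symbols matched RefSeq by Entrez identifier, and RefSeq sequences of GRCm38.p6 were used.

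The genes, lists, motifs and rules were chosen with earlier results of these data known. All members, up to 5 called and the 2 largest uncalled genes of each list, the neighbours and the 3 nearest profiles of each called gene were named; other genes (Panx1, Adk, Slc29a1, Gfi1, Gzma, F630111L10Rik, Cd8a, Cd4 and single markers) were picked after their values were seen. On simulated data for Tc17 against Tc1 (41345 probe sets, normal independent noise, variances from the fitted prior) the test recovered 44% of log2 changes of 1 and 95% of changes of 2, with 8 false calls. Figures used matplotlib 3.10.9.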

Additional observations from a re-analysis of the deposited data

How the results depend on the processing

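All alternatives kept the direction of every one of the 8 genes. Of these genes 1 was called higher and 4 lower; the unmoderated test called 0 and 0 (1 and 4 at an unadjusted p under 0.05), with 0 of 41345 probe sets (3968 unadjusted). It left the log2 differences of Entpd1, Nt5e, P2ry12, P2ry13 and P2ry14 at −2.04, 2.54, −1.90, −1.31 and −2.80. Leaving out each sample in turn, the calls ran from 0 to 1 higher and 0 to 3 lower (limma, 1 higher and 4 to 6 lower at an unadjusted p under 0.05), and probe sets from 48 to 125. The differences then ran from −2.17 to −1.91 (Entpd1), 2.13 to 2.94 (Nt5e), −1.92 to −1.88 (P2ry12), −1.51 to −1.11 (P2ry13) and −2.94 to −2.66 (P2ry14). In these fits the lone sample of a group is assumed to vary like the other group, so their counts rest on that assumption. With all samples kept, 13.3% of all probe sets had an unadjusted limma p under 0.05. Unadjusted counts for the 8 genes are therefore a weak standard.

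The 418 called probe sets became 1581 with the technical array averaged with sample 1, 2318 with 6 separate arrays, 2074 with the biological sample as a random block, 648 and 712 under the filters on level and 866 with single-symbol probe sets only. With the replicate number as a block, a replicate block that rests on a shared number alone (correlation of same-numbered deviations 0.31), 1535 probe sets were called, and 5 of the 8 genes lower, Ada added (−0.52). Ada also passed with the technical array averaged with sample 1, as 6 arrays and with the random block (each −0.53), and P2rx7 with the first of these (−1.17). P2ry13 was lost without the technical arrays (−1.29) and after quantile normalization (−1.30), and left both filters. The pathway lists gained calls in several of these settings. Genes called higher went from 1 to 3 for ATP release with 6 separate arrays (2 with the replicate block), from 0 to 2 for nucleoside metabolism (3 with the block, 1 under each filter), from 0 to 4 for the cAMP relay (2 with the block) and from 1 to 3 for the reported regulators (3 with the block). Those called lower went from 1 to 2 for the other enzymes and from 0 to 1 for the cAMP relay and for the neighbours (Med12l) in both fits, and from 1 to 2 for the P2X7 relay with 6 arrays. With single-symbol probe sets only, 3 genes of ATP release and 3 of the reported regulators were called higher. The same counts came with the technical array averaged with sample 1. Outside the 8 genes Gpr171 changed sign without Tc1 sample 2 (−0.093) and without Tc17 sample 1 (−0.019), in a range up to 0.24. For the 8 genes, alternatives on other probe sets could not be run, since each of them had 1. Gpr171 had 2, and the dimmer was not used. No depth exists for arrays; signal over background was not measured, which limits P2ry13 most.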
